A study of Rattus norvegicus with 8 samples.

Results

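The genes described here carry sugar into the hepatocyte and through its early metabolism: Slc2a2, Gckr, Pfkl, Pfkfb1, Pfkfb3, Gapdh, Pklr and Khk. They were chosen by gene name. All array probes named for one of them were taken, which gave 20 probes, printed as 33 spots per array, for 8 of the 25512 gene names on the array. RNA was measured in livers of male Sprague Dawley rats, an outbred laboratory strain, on 8 arrays of 1 slide. The high-fat group had received a diet labelled 60% fat for 12 weeks, and the control group a normal diet for 12 weeks, with 4 samples each. A weight of 180 to 200 g is given for both groups, with no time at which it was taken. The labels do not say that each sample came from its own animal, so a p-value here reflects only how these samples vary, which may in part be technical. Values are log2 intensities relative to each array's 75th percentile of the probes seen above background on every array, so 0 is the level of that percentile. A diet difference is the high-fat mean minus the control mean on that scale.

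Glucose enters hepatocytes through a transporter of high capacity, is phosphorylated and passes through glycolysis to pyruvate. Flow through the pathway is set at a few steps, among them the trapping of glucose, phosphofructokinase and pyruvate kinase. Fructose is phosphorylated by ketohexokinase and enters below phosphofructokinase, so it is not held back at that step. In the fed liver, sugar raises transcription of several of these genes through carbohydrate response elements, which are bound by the factor encoded by Mlxipl. These are background facts and were not measured here.

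Of the 8 genes, 0 passed an adjusted p of 0.05 in either direction by limma, and 0 of their 19 tested probes did. Over all 18587 genes tested the same rule called 163, or 0.877% (0.35% higher and 0.527% lower on high-fat diet), so a list of this size with no call is near the background. At an unadjusted p under 0.05, 1 of the 8 genes (Pklr) was reached, beside 15.6% of all genes. The diet difference was positive for 5 genes and negative for 3, with a median of 0.07 beside 0.00 over all genes. For 6 of the 8 genes the 95% interval of the diet difference lay within 1 log2 unit of 0 on either side, the exceptions being Pklr and Pfkfb1. The genes differed more in how they varied among samples: Slc2a2 was among the steadier genes of the array and Pfkfb1 among the most variable. Pklr was the one member whose groups did not overlap. Of all genes tested 11.1% had no overlap, so 1 of 8 is near the background.

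Some sequences that bear on these results are shown first. The Pklr promoter is shown because, of the 8 members, it was the only one that held the carbohydrate response element form, a pair of E-box-like blocks 5 bases apart. The blocks searched were CACGNG and CNCGTG, with N for any base. Looser forms were not searched, so which promoters match, and how many, depends on the form chosen. The capitals mark that match, at bases -168 to -152 from the annotated start, in the 250 bases before the start on the plus strand at chr2:176841014-176841263 (RefSeq, GRCr8).
Pklr promoter: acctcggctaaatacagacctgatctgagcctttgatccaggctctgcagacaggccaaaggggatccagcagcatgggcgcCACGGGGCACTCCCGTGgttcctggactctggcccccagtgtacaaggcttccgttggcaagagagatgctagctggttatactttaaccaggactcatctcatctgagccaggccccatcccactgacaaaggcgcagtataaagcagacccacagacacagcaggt
The form was found in 7 of 33469 such windows, or 0.0209%, searched on both strands. The plain E-box, CACGTG, was in 1872 windows (5.59%) and, among the members, in that of Pfkfb3, where it began at base -42 and is capitalised in the 30 bases around it.
Pfkfb3 site: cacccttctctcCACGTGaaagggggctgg
A match describes letters and is no evidence of binding, and all 8 members had a window in the table.

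The other sequences are the first 30 bases of the probes of Pklr and Pfkfb1, shown because the results on these genes turn on separate probes that gave like profiles. All member probes were 60 bases long.
Pklr probe 1: ccccctaccagaaggtggagaggacagagg
Pklr probe 2: acctcaatacagcaagtttgagtattgctg
Pfkfb1 probe 1: tcccaaacaggtctcaattcctagccacaa
Pfkfb1 probe 2: aagggagagtcctatgaggatctggttcag
Pfkfb1 probe 3: tgataaataaagatgtttatttctgcctat
Probes are numbered from the brightest. The polyadenylation signal AATAAA, searched on the probe's own strand, was in 5 of the 20 member probes and in 6.94% of all 46883 probes. The files place Pklr probe 1 at chr2:181223446-181223505 and Pfkfb1 probe 1 at chrX:39885965-39886024, both on the plus strand of rn4. An rn4 annotation of exons and UTRs was not used here.

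The arrays differed in brightness. The share of probes well above background ran from 50.4% to 71.9% in controls and from 56.3% to 71.4% in high-fat samples, and control replicate 1 and high-fat replicate 1 were the dimmest. Pairs of arrays correlated at 0.970 to 0.985 within the control group, 0.971 to 0.982 within the high-fat group and 0.960 to 0.980 between groups. All 8 hepatocyte markers were above background, and their summed linear level was 584 to 798 in controls and 598 to 760 on high-fat diet. Summed erythroid markers were 28.0 to 71.9 in controls and 71.9 to 115 on high-fat diet, with 7 of 8 on the array and Rhag above background on no array. Summed macrophage markers were 19.5 to 25.1 in controls and 9.62 to 17.1 on high-fat diet, so these ranges did not overlap. Clec4f and Marco made up most of this sum. The others, Itgam, Cd68, Csf1r, Cd163 and Adgre1, had diet differences from -0.30 to -0.04 on their brightest probes, with overlapping groups. Their further probes ran from -1.05 for Itgam to 0.25 for Adgre1. Summed adipocyte markers were 1.02 to 1.51 and 1.81 to 2.55, with the lipid droplet gene Cidec (0.67, adjusted p = 0.13 by limma) making up most of the sum, Adipoq above background on at most 3 arrays and Lep on none. Islet markers summed to 0.052 to 0.073 in controls and 0.039 to 0.063 on high-fat diet, with Gcg and Pdx1 above background on no array. No single marker passed the threshold. In these bulk samples fewer cells of a type and less RNA per cell cannot be told apart.

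**Figure D1:**
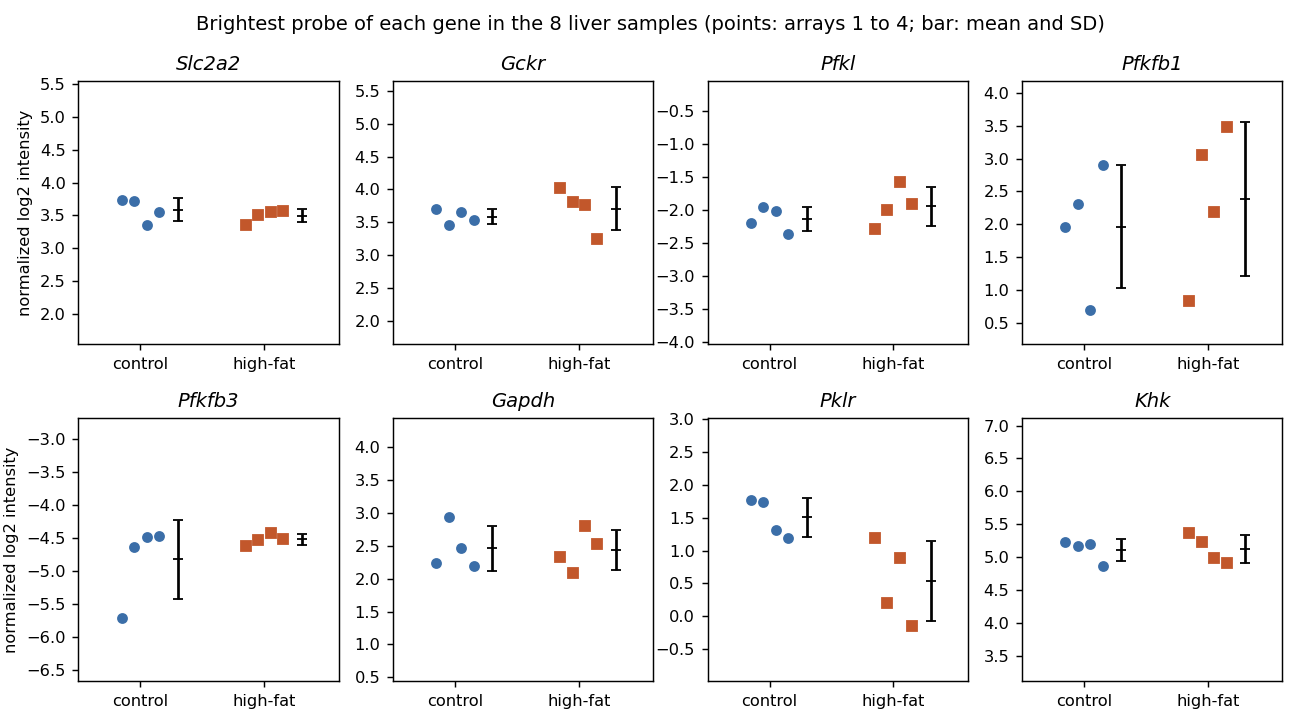
Normalized log2 intensity (y axis, a span of 4 log2 units in every panel) of the brightest probe of each member in the 4 control samples (circles) and 4 high-fat samples (squares), in replicate order 1 to 4. Black bars are the group mean and SD. Pklr is the member whose groups do not overlap, Pfkfb1 spreads over 2.78 units with both groups mixed, and control replicate 1 stands low for Pfkfb3 at -5.71.

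Slc2a2 encodes GLUT2, the main glucose transporter of the hepatocyte surface, which also carries fructose. Its brightest probe read 3.74, 3.72, 3.35 and 3.56 in control replicates 1 to 4, and 3.36, 3.51, 3.55 and 3.57 in high-fat replicates 1 to 4. The high-fat values lay inside the control range. The means were 3.591 ± 0.181 (SD, n = 4) and 3.496 ± 0.0958 (SD, n = 4), a diet difference of -0.09 with a 95% interval of -0.40 to 0.21 and an adjusted p of 0.80 by limma. The dimmer Slc2a2 probe gave 0.02 (-0.32 to 0.36). The within-group SD of the brightest probe, 0.145, stood at percentile 12.2 of all genes tested, whose median was 0.278.

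Gckr encodes a hepatocyte regulatory protein that binds a hexokinase and inhibits it, and whose hold is loosened by the product of ketohexokinase. The brightest probe read 3.70, 3.46, 3.66 and 3.53 in control replicates 1 to 4, and 4.02, 3.81, 3.76 and 3.25 in high-fat replicates 1 to 4. On high-fat diet 3 of 4 samples lay above every control and 1, replicate 4, below every control. The means were 3.59 ± 0.11 and 3.71 ± 0.33 (SD, n = 4 each), and the diet difference was 0.12 (95% interval -0.28 to 0.52, adjusted p = 0.81 by limma). The second Gckr probe placed the samples likewise, with controls between 2.35 and 2.41 and high-fat samples at 3.04, 2.54, 2.80 and 2.11. Its diet difference was 0.25 (-0.20 to 0.70, adjusted p = 0.61 by limma), the lowest adjusted p of any member probe outside Pklr. On both probes the high-fat samples were spread more widely than the controls, with SDs of 0.33 against 0.11 and 0.40 against 0.031, a difference in spread that was not tested.

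Phosphofructokinase commits sugar to glycolysis, and Pfkl encodes its liver subunit. The brightest Pfkl probe read -2.20, -1.95, -2.02 and -2.36 in control replicates 1 to 4, and -2.29, -1.997, -1.58 and -1.91 in high-fat replicates 1 to 4. The groups overlapped, with high-fat replicate 3 the highest and control replicate 4 the lowest. High-fat minus control came to 0.19 (95% interval -0.21 to 0.60, adjusted p = 0.67 by limma). The other probes gave 0.24 and 0.16, and the dimmest of the 3 was above background in 3 samples of each group.

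Pfkfb1 and Pfkfb3 encode bifunctional enzymes that make and remove fructose 2,6-bisphosphate, the activator of phosphofructokinase. Pfkfb1 is the liver form, whose balance is turned by glucagon and insulin through phosphorylation. Its brightest probe read 1.96, 2.30, 0.70 and 2.91 in control replicates 1 to 4, and 0.84, 3.05, 2.19 and 3.48 in high-fat replicates 1 to 4. Each group held 1 sample that was far lower than the rest, control replicate 3 and high-fat replicate 1, and the groups overlapped widely. The lowest and highest samples differed 6.87-fold. The diet difference was 0.42, with a 95% interval of -1.02 to 1.87 and an adjusted p of 0.81 by limma, so the interval spans changes of 1 log2 unit in both directions. Without control replicate 3 the difference was 0.0012, and without high-fat replicate 1 it was 0.94.

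That spread was shared by all 3 Pfkfb1 probes. Probe 2 ran from -2.28 in control replicate 3 to 1.0 in high-fat replicate 4, and probe 3 from -3.58 to -0.84 in the same samples. After each profile was centred on its mean, probes 1 and 3 differed by a root mean square of 0.095 log2 units over the 8 arrays, probes 1 and 2 by 0.227 and probes 2 and 3 by 0.301. The within-group SD of 1.06 stood at percentile 96.0 of all genes tested. The 2 low samples lay in different slide rows. They were the arrays with the second and the third smallest share of probes above background, 56.3% in high-fat replicate 1 and 64.3% in control replicate 3. The dimmest array, control replicate 1 with 50.4%, had a Pfkfb1 value of 1.96, and the part of array brightness was not tested.

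Among 18586 other genes, those with the centred profile nearest to that of Pfkfb1 were Enc1 (root mean square difference 0.298), Ccdc18 (0.308) and Hpdl (0.330). The median over all genes was 0.984. A gene ranked near by this measure has low and high samples like those of Pfkfb1 by the choice. Ccdc18 and Hpdl were dim, above background on 4 and 5 of the 8 arrays. Another 2 genes are named here after their values were seen. Por, which encodes the electron donor of the cytochrome P450 enzymes, ranked 4 (0.346), with -0.21 in both control replicate 3 and high-fat replicate 1 and 2.68 in high-fat replicate 4. Dbp, a transcription factor whose RNA follows the daily clock, ranked 11 (0.457), with 1.27 in control replicate 3, 1.92 in high-fat replicate 1 and 2.48 to 3.52 in the other 6 samples. The time of day at which livers were taken is not given in the labels. Its part in the Pfkfb1 values was not tested.

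**Figure D2:**
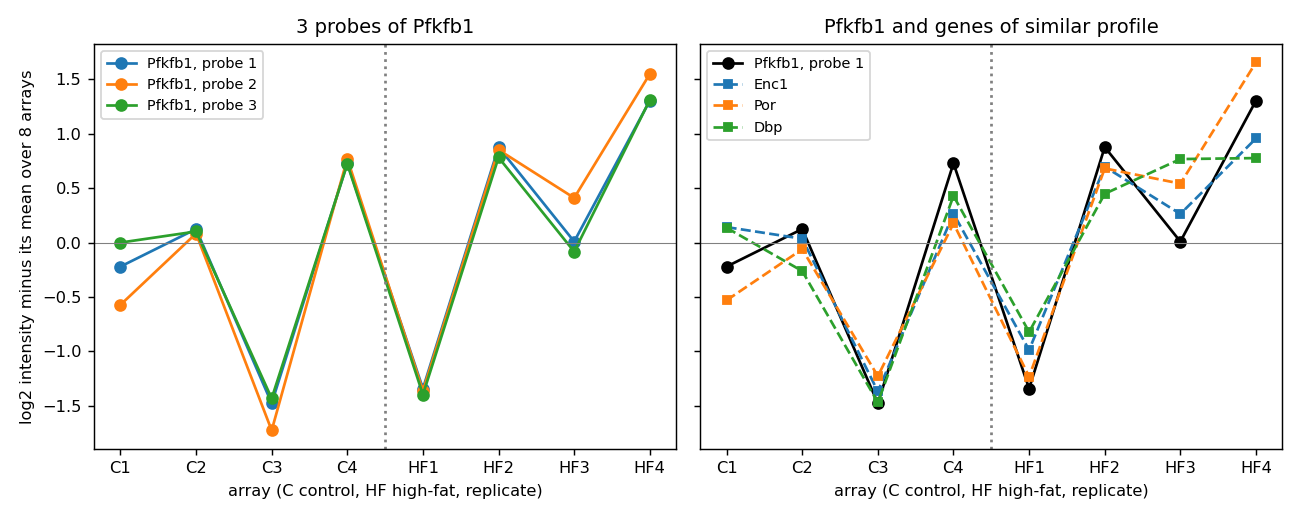
Log2 intensity minus its mean over the 8 arrays (y axis) for each sample (x axis, C for control and HF for high-fat with the replicate number). The left panel shows the 3 probes of Pfkfb1, all lowest in control replicate 3 and highest in high-fat replicate 4. The right panel sets probe 1 beside Enc1, Por and Dbp, chosen by likeness to it. Like Pfkfb1, these genes are lowest in control replicate 3 and high-fat replicate 1, which their choice favours.

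Pfkfb3 encodes the form with mostly kinase activity, which is induced in growing and oxygen-starved cells, and it was dim in these livers. The brightest probe read -5.71, -4.64, -4.48 and -4.47 in control replicates 1 to 4, and -4.62, -4.53, -4.42 and -4.51 in high-fat replicates 1 to 4. Control replicate 1, the dimmest array, was far below the other 7 samples, which lay within a narrow band. For this probe the diet difference was 0.30 (95% interval -0.32 to 0.93, adjusted p = 0.66 by limma), and 0.01 without control replicate 1. The nearest profiles were those of Smoc1 (0.072), Tpsab1 (0.078) and Prlh (0.084), against a median of 0.491. All 3 genes were also lowest in control replicate 1, which follows from their choice by likeness. Probe 2 of Pfkfb3 gave 0.24 (-0.48 to 0.96) but followed another course over the arrays, with a root mean square difference of 0.386 from probe 1. Probe 3 was above background in 1 control and 2 high-fat samples and was not tested.

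Gapdh encodes the glycolytic dehydrogenase that is widely used as a reference gene. Its brightest probe read 2.24, 2.94, 2.46 and 2.20 in control replicates 1 to 4, and 2.32, 2.08, 2.80 and 2.52 in high-fat replicates 1 to 4. The groups overlapped throughout. High-fat minus control came to -0.03 (95% interval -0.52 to 0.47, adjusted p = 0.97 by limma), and the other probes gave -0.02 and 0.05. The 3 probes followed each other closely, with root mean square differences of 0.107 to 0.201. Samples differed by up to 1.81-fold on probe 1, and the within-group SD stood at percentile 58.6, so Gapdh was no steadier than the median gene of these livers.

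Pklr encodes pyruvate kinase, the last step of glycolysis, in its liver form and, from another promoter, in its red cell form. Its brightest probe read 1.77, 1.74, 1.31 and 1.20 in control replicates 1 to 4, and 1.19, 0.21, 0.88 and -0.14 in high-fat replicates 1 to 4. Every high-fat value lay below every control value, although control replicate 4 and high-fat replicate 1 nearly met. The means were 1.505 ± 0.293 and 0.533 ± 0.610 (SD, n = 4 each), so the control mean was 1.96 times the high-fat mean. The diet difference was -0.97 with a standard error of 0.30 and a 95% interval of -1.66 to -0.28. Limma gave an unadjusted p of 0.011 and an adjusted p of 0.18, which does not pass the threshold. A two-sided exact permutation test on this probe gave p = 0.0286, the smallest that 4 against 4 samples allow. Groups that do not overlap always give this value, so it adds nothing to the lack of overlap. Of all genes tested, 11.1% had no overlap in either direction, and 6.23% were lower on high-fat diet with no overlap.

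The second Pklr probe read 1.15, 1.54, 1.04 and 1.05 in controls and 0.80, 0.02, 0.91 and -0.28 in high-fat samples, again without overlap. Its diet difference was -0.83 (95% interval -1.48 to -0.18, adjusted p = 0.22 by limma). Both probes put high-fat replicates 2 and 4 lowest. The difference of probe 1 was -1.06 within slide row 1 and -0.89 within slide row 2, with 2 samples per group in each, and -1.10 without the 2 dimmest arrays. It was negative under all 22 alternative settings, from -1.19 to -0.75, with adjusted p-values of 0.11 to 0.60 by limma. Erythroid markers bear on the red cell form, and of the 5 tested 4 had a positive diet difference on the brightest probe. Alas2 had 1.43 (adjusted p = 0.090 by limma) on its brightest probe and 0.36 on the other. Hba-a2 had 1.14 (adjusted p = 0.14), Hbb 1.05 (adjusted p = 0.18) and Ahsp 0.64 (adjusted p = 0.36), while Slc4a1 had -0.29 (adjusted p = 0.85). The other Ahsp probes gave -0.08 and 0.51. The part of these markers in the Pklr values was not tested.

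The genes with the centred profile nearest to that of Pklr were Cdh1 (0.182), an adhesion molecule of epithelia, Ak3l1 (0.224), an adenylate kinase, and Psmb9 (0.239), a subunit of the immunoproteasome, against a median of 0.711. Their diet differences were -0.83, -1.18 and -0.96, with adjusted p-values of 0.12, 0.056 and 0.12 by limma. Likeness was taken over both diet groups, so differences near that of Pklr follow from the choice and add nothing to it. Within the high-fat group the brightest probes of Pklr and Pfkfb1 ran in opposite order, with Pklr highest and Pfkfb1 lowest in replicate 1 and the reverse in replicate 4. On the second Pklr probe replicate 3 was highest (0.91) and replicate 1 next (0.80), so the order was not fully opposite there. In the controls replicate 4 also had the lowest Pklr (1.20) and the highest Pfkfb1 (2.91), but replicate 3, with the lowest Pfkfb1 (0.70), had a Pklr of 1.31, below replicates 1 and 2. This was noticed after the values were seen and was not tested.

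Khk encodes ketohexokinase, which phosphorylates fructose. Its brightest probe read 5.22, 5.17, 5.20 and 4.86 in control replicates 1 to 4, and 5.37, 5.24, 4.99 and 4.91 in high-fat replicates 1 to 4. Replicate 4 was the lowest of each group, and the groups overlapped. Between the diets the mean differed by 0.01 (95% interval -0.34 to 0.36, adjusted p = 0.99 by limma). The second probe gave -0.29 (-0.82 to 0.24, adjusted p = 0.62), so the probes had opposite signs, with both intervals spanning 0.

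**Figure D3:**
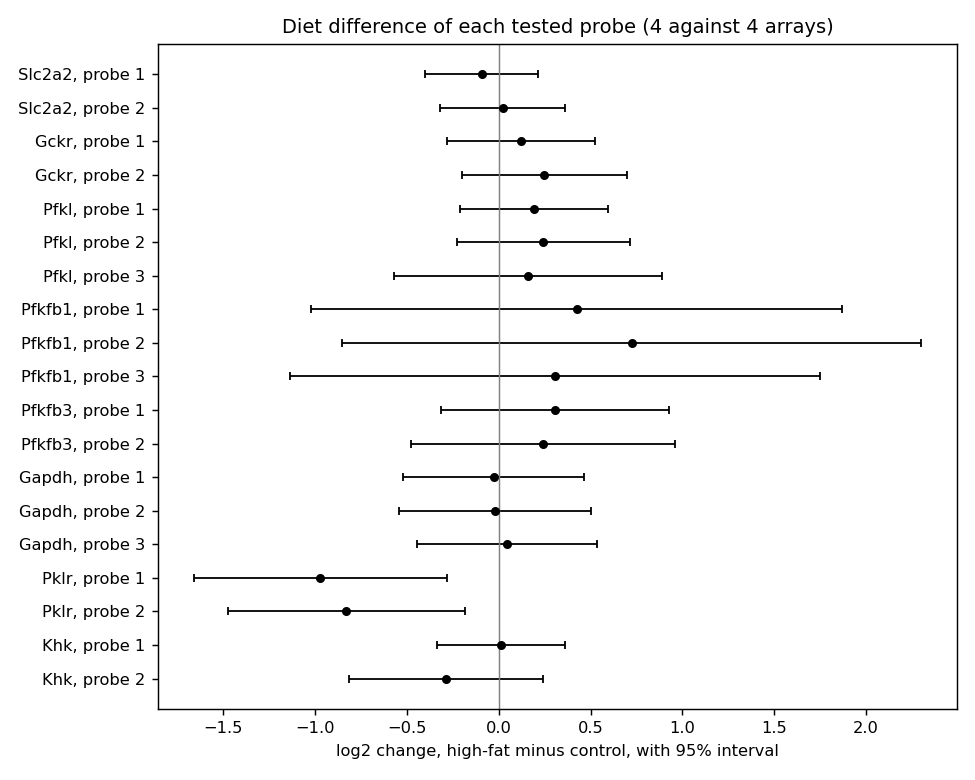
Diet difference (x axis, high-fat minus control in log2 units) of the 19 tested member probes, with 95% intervals from the limma fit of 4 against 4 samples. The intervals of both Pklr probes lie below 0, all others span 0, and those of the 3 Pfkfb1 probes are the widest.

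The other genes of the pathway were read from 7 lists that held 57 genes, of which 56 were on the array and 53 were tested. By limma 0 rose and 0 fell at an adjusted p under 0.05. An unadjusted p under 0.05 was reached by 12 of the 53, beside 15.6% of all genes. The diet difference was positive for 21 and negative for 32, with a median of -0.07 beside 0.00 over all genes. Groups did not overlap for 7 of the 53, where 11.1% of all genes had that property. All values below are diet differences in log2 units, none of which passed the threshold.

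Of the glucose and fructose transporters 5 of 6 were tested, and 4 were negative (median -0.28). Slc2a4, the insulin-responsive transporter of muscle and fat, had -1.59 (adjusted p = 0.16 by limma) on its brightest probe and -0.52 on the other. The brightest probe gave -0.74 with normexp background correction and -0.97 without the 2 dimmest arrays. It was dim, at -3.72, -5.84, -5.65 and -5.92 in controls and -7.18, -7.08, -6.74 and -6.51 in high-fat samples, so the groups did not overlap and control replicate 1 stood high. Skeletal muscle markers summed to 0.077 to 0.231 in controls and 0.102 to 0.146 on high-fat diet, with the highest sum in control replicate 1, and Myh4 and Acta1 were above background on no array. Their part in the Slc2a4 value was not tested. Slc2a9, a urate transporter, had -0.38 and Slc2a1, which encodes GLUT1, had 0.47.

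Of the hexokinases 4 were tested (median -0.34). Hk2 had -0.44 (adjusted p = 0.16 by limma), with controls from -6.22 to -5.86 and high-fat samples from -6.51 to -6.34. These are low levels, and the groups did not overlap. Hk3, a form of blood cells, had -0.86 (adjusted p = 0.22), the same sign as all 7 macrophage markers on their brightest probes. Of these Marco had -2.38 and Clec4f -0.60, and the others ran from -0.30 for Itgam to -0.04 for Adgre1. Further probes gave -1.05 and -0.68 for Itgam, 0.12 for Cd163, 0.25 for Adgre1 and negative values for the rest. The part of these markers in the Hk3 value was not tested. Hk1 had -0.23. The 4 tested genes of the phosphofructokinase family outside the members were all negative (median -0.40), with -0.53 for the muscle subunit Pfkm, -0.39 for the platelet subunit Pfkp and -0.42 for Pfkfb4. The Pfkfb4 value had a 95% interval of -2.49 to 1.66 and was 0.56 without high-fat replicate 1. The members Pfkl (0.19), Pfkfb1 (0.42) and Pfkfb3 (0.30), the last not a liver form, had positive differences where these relatives had negative ones. The 95% intervals of these members span 0. Within slide row 1 Pfkl was -0.064 and Pfkfb1 -0.18, so the difference in sign did not hold there.

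In lower glycolysis 11 of 13 tested genes were negative (median -0.15). Pkm, the pyruvate kinase gene of other tissues, had -0.40 (adjusted p = 0.23 by limma), with controls from -1.68 to -1.20 and high-fat samples from -1.97 to -1.69 and no overlap. The isomerases Tpi1 and Gpi had -0.28 and -0.32. The other Pkm probes gave -0.26 and -0.14. Pkm and Pklr, the pyruvate kinase genes, each had its high-fat values below its controls on the brightest probe, as did 6.23% of all genes. For Pkm the groups nearly met.

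Among 4 fructose and polyol enzymes the median was -0.01. Sord, the sorbitol dehydrogenase that makes fructose from sorbitol, had 0.44 (adjusted p = 0.18 by limma), with controls from 3.23 to 3.59 and high-fat samples from 3.71 to 4.01, again without overlap. Tkfc, which phosphorylates glyceraldehyde after the fructose cleavage step, had -0.35 and Akr1b1, aldose reductase, -0.06. Of the sugar-responsive regulators and reporters 12 of 13 were tested, and 7 were positive (median 0.09). Txnip and Arrdc4 are related arrestin-like genes known to be induced by glucose, and their values had opposite signs. Txnip had -0.49 (adjusted p = 0.32) and Arrdc4, dim and above background on 4 arrays, had 0.96 (adjusted p = 0.19). With normexp background correction Arrdc4 had 0.099.

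In the list of pyruvate and lactate exit 8 of 11 genes were positive (median 0.11). Mpc1, a subunit of the mitochondrial pyruvate carrier, had 0.46 (adjusted p = 0.17 by limma). Its controls lay between 3.44 and 3.48 and its high-fat samples at 4.19, 3.97, 3.66 and 3.89, all above the controls. Pcx, pyruvate carboxylase, had 0.36 and Dlat, of the pyruvate dehydrogenase complex, 0.22.

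**Figure D4:**
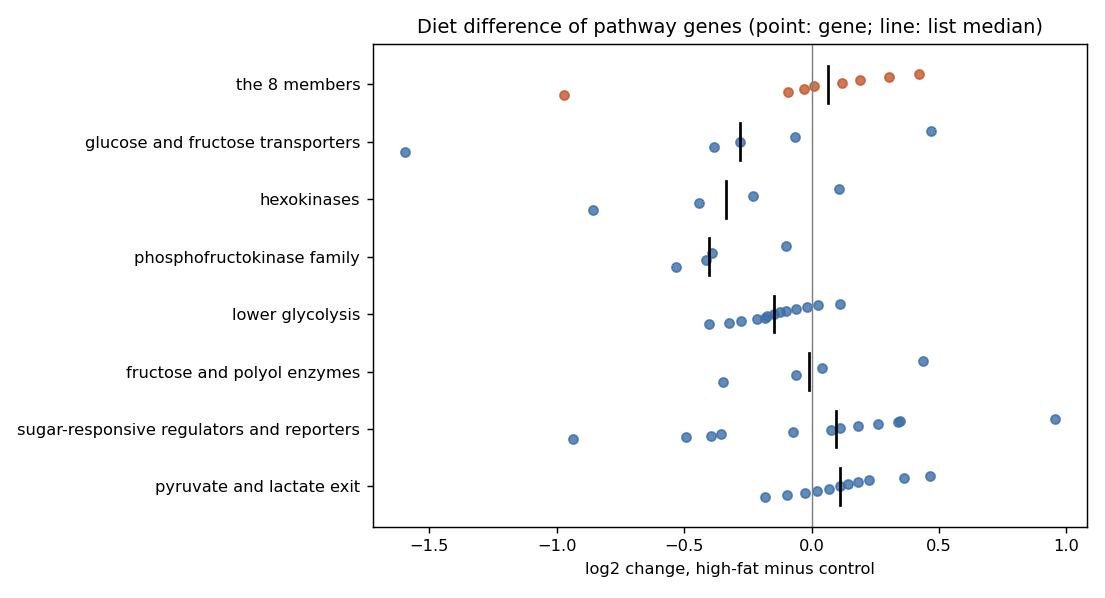
Diet difference (x axis, log2 units) of the brightest tested probe of each gene, for the 8 members (top row) and the 7 pathway lists. Points are genes and black lines list medians, which run from -0.40 for the phosphofructokinase family to 0.11 for pyruvate and lactate exit. No gene plotted passed the threshold.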

How the data were processed

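RNA of 4 high-fat and 4 control liver samples was measured on 1-colour Agilent arrays. From 500 ng of total RNA, Cy3-labelled cRNA was made with oligo-dT priming, per the labels' protocols. Per the file headers, the authors made the spot intensity values in Agilent software (Feature Extraction 10.7.3.1) by background subtraction and detrending, with a surrogate value for dim spots. Probe positions in the headers are on rn4. A table deposited by the authors holds log2 values. How it was scaled is not given in the sources used here. It tracked the scanner values scaled to the 75th percentile of all probes (correlation at least 0.999, column medians -3.21 to -3.10), with no centring per probe. It was used as an alternative.

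There were 62976 spots per array, 58717 of them non-control, from 46883 probes. Flagged spots were left out, 2 of them on Gckr, whose probe kept its other spots, and 82 missing values remained among tested probes. Saturation was found on 0 spots. From each log2 processed signal the array's 75th percentile was subtracted, taken over probes above background on all 8 arrays (47.91%) and repeat spots were averaged per probe. The 31535 probes above background on at least 4 arrays were fitted with limma 3.58.1 (R 4.3.3). The Benjamini-Hochberg adjustment ran over all of them, and 286 probes passed at 0.05. A gene stands for its brightest tested probe. The procedure was checked on simulated data. The number of arrays limits the precision. RefSeq matched 73.03% of tested probes by accession and was used for names and promoters.

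All members are named with every probe, and each pathway list by its up to 3 genes of smallest p. For members that span over 1 log2 unit, the 3 nearest profiles are named. From the marker lists, passing genes and the summed level were to be named, and other markers given beside results were chosen after their values were seen. The members and lists were chosen with earlier results of these data known. Alternatives covered background correction, scaling, filters, probe summary, variance model, array weights, replicate and slide row blocks and left-out arrays. Single values of some listed genes are not reported here.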

Additional observations from a re-analysis of the deposited data

Results flagged for a closer look

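Among 84 sets of 4 values from the member and named pathway probes and the arrays' brightness, 5 held 1 sample far from the other 3 by Dixon's test at its 95% critical value. Chance gives this in about 1 of 20 sets. All 5 lay in the control group, and 3 of them in control replicate 1, the dimmest array. Khk was 4.86 in control replicate 4 against 5.17 to 5.22 in the other controls. Pfkfb3 was -5.71 in control replicate 1 against -4.64 to -4.47. Slc2a4 was -3.72 in control replicate 1 against -5.92 to -5.65. Txnip was -0.91 in control replicate 1 against -1.36 to -1.29. Tkfc, called Dak on the array, was 0.31 in control replicate 2 against -0.84 to -0.71.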

How the results depend on the processing

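The count of members past the threshold, and that of the other pathway genes, was 0 under every alternative run, with at most 1 and 14 at an unadjusted p under 0.05 by limma. The background moved more. From 163 genes and 286 probes, the counts went to 253 genes with normexp, 5 genes and 10 probes with no filter on dim probes, 329 and 529 with probes above background on all 8 arrays, 335 and 545 with trend and robust options, 98 and 171 with slide row as a block, and 14 and 25 without the 2 dimmest arrays, an alternative chosen after seeing the data. Leaving out 1 array gave 16 (high-fat replicate 2) to 89 genes (high-fat replicate 1) and 23 to 154 probes. For controls left out in the order 1 to 4 the genes numbered 52, 39, 28 and 73, and for high-fat replicates 3 and 4 they numbered 47 and 28. Within slide rows 1 and 2 limma called 0 genes and 0 probes, with 1454 and 2255 genes at an unadjusted p under 0.05. With replicate number as a block 1 gene and 1 probe passed, and Pklr had an adjusted p of 0.20. The deviations of same-numbered samples correlated at -0.12, 0.26, 0.23 and 0.01. Differently numbered samples were not compared, so these values cannot decide whether equal numbers mark pairs. The labels do not say so, and the main fit did not take them as pairs. The median of all genes was -0.05 with normexp and nearer to 0 under the other settings, except that it was not computed for the mean of a gene's probes.

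Of the members, Pklr and Pfkfb3 kept their sign in all 22 alternatives. Other values changed sign, among them Pfkfb1, Pfkfb4 and Gpi, which were not near 0, and the cause was not tested. Khk became -0.028 with normexp, -0.0036 with scaling over all probes, -0.00048 with the authors' table, -0.083 within row 2, -0.032 without the 2 dimmest arrays and -0.14 as the mean of its probes, and ran from -0.073 to 0.083 with 1 array left out. Gapdh became 0.33 within row 2 and ran from -0.15 to 0.13 with 1 array left out. Within row 2 Gckr was -0.090, Slc2a2 0.11, Gpi 0.056 and Pfkfb4 0.45. Within row 1 Pfkfb1 was -0.18, Pfkl -0.064, Akr1b1 0.14 and Dlat -0.021. Without the 2 dimmest arrays Slc2a2 was 0.0019 and Pfkfb4 0.44. Pfkfb4 was 0.019 with array weights and ran from -0.94 to 0.56 with 1 array left out, and Akr1b1 from -0.23 to 0.021. Signal over background limits the dimmest probes, Slc2a4, Hk2 and Arrdc4, which were above background on 7, 6 and 4 of 8 arrays.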
